A study of Mus musculus with 6 samples.

Results

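The miR-144 and miR-451a locus and the miR-486 locus make the microRNAs most closely tied to red blood cells. MicroRNAs (miRNAs) are short RNAs that lower the output of messenger RNAs they pair with. The 7 mature products of these loci, chosen by name, were followed in inflamed mouse pancreas: mmu-miR-451a, mmu-miR-144-3p, mmu-miR-144-5p, mmu-miR-486a-5p, mmu-miR-486a-3p, mmu-miR-486b-5p and mmu-miR-486b-3p, where mmu stands for the mouse. All 7 were among the 1077 miRNA rows of the deposited count table, and all 7 passed the filter on low counts that left 488 rows for testing. The miR-486a and miR-486b rows held identical counts in all 6 libraries, so the 7 rows gave 5 distinct measurements, written below as miR-451a, miR-144-3p, miR-144-5p, miR-486-5p and miR-486-3p.

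The study compared pancreas from mice with pancreatitis alone (control, 3 libraries) and pancreas from mice with pancreatitis and a raised level of blood triglycerides (HTG in the labels' titles, 3 libraries). All 6 libraries were thus from inflamed tissue, and healthy pancreas was not analysed here. Strain, age, sex, the way pancreatitis or HTG was brought about and whether each library was 1 animal were not stated in any source used here, so p-values measure the spread between libraries, which may be partly technical. The levels below are CPM (counts scaled to the total of the library, with that total corrected by the trimmed mean of M-values, TMM), with no length term.

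As background, miR-144 and miR-451a are cut from 1 primary transcript that the erythroid transcription factor Gata1 switches on. The hairpin of miR-451a is too short for Dicer, and Ago2, the slicing Argonaute protein, cuts it instead. In mice, loss of miR-451 weakens red cell formation under stress, in part through its target Ywhaz, a 14-3-3 protein that restrains Foxo3. The miR-486 hairpin lies in Ank1, the gene of the ankyrin that anchors the red cell membrane skeleton, and miR-486-5p is also made in striated muscle. Mature red cells have lost their nucleus but keep these miRNAs, so in whole tissue they are usually carried by blood.

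The mature sequences of the miR-144 and miR-451a locus are shown because the seed (bases 2 to 8 from the 5′ end, in capitals) largely sets which messenger RNAs a miRNA binds, and because the arms of miR-144 behaved differently in 1 library. They are from RefSeq on GRCm38.p6; 3 of the 7 members were matched in the table of sequences used here, all on chromosome 11.
miR-451a: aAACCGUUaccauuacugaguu
miR-144-3p: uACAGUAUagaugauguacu
miR-144-5p: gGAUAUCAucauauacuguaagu
miR-101a-3p: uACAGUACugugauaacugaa
No other mouse miRNA in that table had the seed of any of these 3 members. miR-101a-3p is shown because it had the same bases 2 to 7 as miR-144-3p and differed from it in the last base of the seed.

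The hairpins show how differently these neighbours are built, with the mature miRNAs in capitals.
Mir144: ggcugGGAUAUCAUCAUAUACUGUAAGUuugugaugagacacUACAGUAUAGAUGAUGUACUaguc
Mir451a: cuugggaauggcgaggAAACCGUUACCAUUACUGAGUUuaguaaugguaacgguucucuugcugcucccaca
Mir144 has 66 bases and lies on chromosome 11 from 78073005 to 78073070 (+ strand, GRCm38). Mir451a has 72 bases and starts 99 bases further on, from 78073170 to 78073241 (+ strand). In GENCODE M21 neither lies in a longer gene, and Mir451b is annotated on the opposite strand of the same bases as Mir451a. In the fold that RNAfold predicts for Mir451a, bases 35 to 38 form the loop, and miR-451a, bases 17 to 38, runs up the stem and through all 4 loop bases. Both arms of miR-144 lie in the stem of the predicted Mir144 fold, with 20 of 23 bases of miR-144-5p and 19 of 20 bases of miR-144-3p paired. Mir486 lies on chromosome 8 from 23142555 to 23142682 (+ strand), in an intron of Ank1. The hairpin gene of miR-486b, Mir3107, lies within it from 23142573 to 23142662 on the opposite strand, in an intron of the antisense gene Gm15816.

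The libraries held 6514498 to 19773579 counts, so a miRNA with no count could still have been present at up to 0.137 CPM in the deepest and 0.387 CPM in the shallowest library (3 counts; counting error only). The libraries numbered 1 of both groups stood apart from the other 4 in the series as a whole. For 99 of the 488 tested miRNAs, or 20.3%, the highest 2 libraries were control 1 and HTG 1. Each of the 5 distinct erythroid measurements was among these 99. The acinar miRNAs, led by miR-148a-3p, summed to between 317942 and 527770 CPM per library; acinar cells are the enzyme-secreting bulk of the pancreas.

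Erythroid miRNAs were a small fraction of the miRNA counts in pancreas, and all but miR-486-3p were well counted. Together, with their identical rows counted once, they took 0.0942%, 0.050% and 0.0458% of all miRNA counts in control 1, 2 and 3. In HTG 1, 2 and 3 they took 0.128%, 0.0587% and 0.0418%. The total of each library was taken over all miRNA rows, identical ones included. The group means were 0.0633% ± 0.0268 and 0.0763% ± 0.0459 (SD, n = 3 each), and the groups overlapped. In a bulk tissue, fewer red cells and less of these RNAs per cell cannot be told apart. miR-451a alone supplied 64.5% to 70.4% of the erythroid counts in every library.

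No erythroid miRNA passed the test between HTG and control pancreatitis. Of the 5 distinct measurements, 3 lay higher and 2 lower in HTG, none passed in edgeR's quasi-likelihood test (adjusted p = 0.996 for each, Benjamini-Hochberg over 488 miRNAs), and the values of the groups overlapped for all 5. Of all 488 tested miRNAs 0% passed (12, or 2.46%, at an unadjusted p under 0.05, none of them erythroid), and 4.30% were higher and 3.69% lower without overlap. DESeq2 and limma-voom called 0 as well, with 19 and 17 at an unadjusted p under 0.05. The median log2 fold change was 0.30 over the 5 measurements and -0.02 over the 7 rows, against -0.0076 over all tested miRNAs.

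miR-451a was the most abundant member and ranked 76 to 105 among all miRNAs, depending on the library. It stood at 637, 345 and 267 CPM in control 1, 2 and 3, and at 760, 452 and 320 CPM in HTG 1, 2 and 3. The library numbered 1 was highest and the library numbered 3 lowest in both groups, and the ranges overlapped. The group means were 416 ± 195 and 511 ± 226 CPM (SD, n = 3 each). The log2 fold change was 0.30 ± 0.41 (SE; adjusted p = 0.996 in edgeR). Its 95% interval, from 0.63-fold to 2.38-fold, left room for changes of either sign. The labels do not state that libraries of the same number are pairs. Between libraries of the same number, HTG was 1.19, 1.31 and 1.20 times control for numbers 1, 2 and 3. Without HTG 1 the fold change turned to -0.083.

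miR-144-5p, the arm opposite the classical guide of the miR-144 hairpin, was the better counted arm of that hairpin in all 6 libraries. It lay at 59.8, 30.6 and 22.8 CPM in the controls and at 56.3, 51.9 and 32.4 CPM in the HTG libraries. Control 1 was the highest of the 6, so the groups overlapped. The log2 fold change was 0.32 ± 0.38 (SE; adjusted p = 0.996 in edgeR). Leaving out control 1 raised it to 0.87 ± 0.28, with an unadjusted p of 0.0198 and an adjusted p of 0.476 in edgeR. Without both libraries numbered 1 it was 0.76 ± 0.27, with an unadjusted p of 0.0298 and an adjusted p of 0.293 in edgeR. It stayed above 0 in each fit that left out 1 library. Between libraries of the same number, HTG was 0.942, 1.70 and 1.42 times control.

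miR-144-3p, the arm known from human erythroid cells to repress the antioxidant regulator Nrf2, was rarer and more scattered. Its levels were 26.6, 13.4 and 3.06 CPM in the controls and 32.4, 14.9 and 10.9 CPM in the HTG libraries. Control 3 lay far below the other 5 libraries, on 67 counts in the most deeply sequenced library. The group means were 14.3 ± 11.8 and 19.4 ± 11.4 CPM (SD, n = 3 each), with a log2 fold change of 0.44 ± 0.73 (SE; adjusted p = 0.996 in edgeR). Without control 3 the fold change was -0.06, and without HTG 1 it was -0.11, so its direction in fits without pairing rested on these libraries. Between libraries of the same number, HTG was 1.22, 1.12 and 3.55 times control for numbers 1, 2 and 3. The last of these values rests on the low control 3. With the number as a block the log2 fold change was 0.71 ± 0.35 (SE; adjusted p = 0.989 in edgeR).

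**Figure D1:**
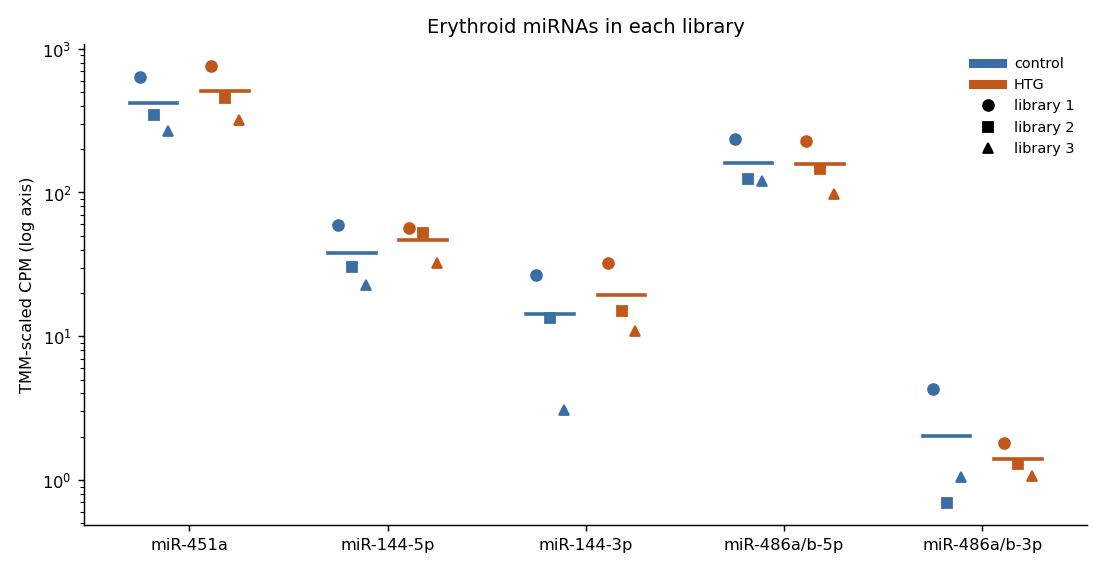
Level of each erythroid miRNA in each library, as TMM-scaled CPM on a log axis; points are libraries, shapes their numbers, colours the groups and horizontal lines the group means (n = 3 each). The library numbered 1 is the highest of its group for all 5 measurements, the groups overlap throughout, and miR-144-3p in control 3, at 3.06 CPM, lies far below its other libraries.

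The arms of miR-144 are cut from the same hairpin, so their ratio within a library does not depend on scaling. miR-144-3p made up 30.8% of the reads of both arms in control 1, 30.4% in control 2 and 11.8% in control 3. The shares were 36.5%, 22.3% and 25.1% in HTG 1, 2 and 3. The 95% Wilson interval in control 3, from 9.43% to 14.8%, lay below that of each other library, the nearest being HTG 2 with 19.9% to 24.9%. Control 3 therefore departed from the rest by more than counting error, and the intervals cover counting error only.

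Read against miR-451a, the neighbour on the transcript, the 3p arm was low in control 3 and the 5p arm was not. There were 10.7, 11.3 and 11.7 reads of miR-451a for each read of miR-144-5p in control 1, 2 and 3, and 13.5, 8.71 and 9.90 in HTG 1, 2 and 3. Control 3 sat within this range. For each read of miR-144-3p there were 23.9, 25.8 and 87.2 reads of miR-451a in the controls and 23.5, 30.3 and 29.5 in the HTG libraries. Among all 488 tested miRNAs, miR-144-3p had the lowest level in control 3 relative to the mean of the other 5 libraries, at -2.46 on the log2 scale, an item chosen after its values were seen. miR-144-5p was at -0.95 on this measure. miR-144-3p is also short. A length was at hand for 418 of the 488 tested miRNAs. Of these, the 11 of 20 bases had a median of -0.20 in control 3, and the 252 of 22 bases a median of 0.06. The part of length in the low value was not tested.

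miR-101a-3p, with the near-identical seed, was far more abundant in pancreas than miR-144-3p, at 10522 to 14423 CPM. There were 336 to 3440 reads of miR-101a-3p for each read of miR-144-3p, the lowest value in HTG 1 and the highest in control 3. Reads of miR-101a-3p are nearly the same in number as those listed for miR-101c, and cannot be assigned to 1 of them.

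miR-486-5p ranked second among the erythroid miRNAs. It lay at 235, 124 and 120 CPM in control 1, 2 and 3 and at 229, 145 and 97.5 CPM in HTG 1, 2 and 3. The libraries numbered 1 were nearly equal and clearly above the other 4. Group means were 160 ± 65.5 and 157 ± 66.7 CPM (SD, n = 3 each), with a log2 fold change of -0.02 ± 0.38 (SE; adjusted p = 0.996 in edgeR). The 95% interval ran from 0.53-fold to 1.82-fold, and HTG was 0.973, 1.17 and 0.813 times control between libraries numbered 1, 2 and 3. The sign turned with scaling by library size (0.013), without control 1 (0.42), without HTG 3 (0.22) and without both libraries numbered 1 (0.082).

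miR-486-3p, the passenger arm that Ago2 is known from zebrafish and mice to slice away, was near the limit of detection. It had 38, 6 and 23 counts in the controls and 14, 21 and 10 in the HTG libraries, or 4.32, 0.69, 1.05, 1.81, 1.29 and 1.08 CPM. Control 1 was the highest library, and the other 5 ran from 0.69 to 1.81 CPM. The log2 fold change was -0.51 ± 0.70 (SE; adjusted p = 0.996 in edgeR), and it turned to 0.69 without control 1 and to 0.50 without both libraries numbered 1. With the number as a block it was -0.19 ± 0.54. The 5p arm held 98.2% to 99.4% of the reads of both arms. In control 1, with 98.2%, the 95% Wilson interval was 97.5% to 98.7%, and in control 2, with 99.4%, it was 98.8% to 99.7%.

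miR-451a and miR-486-5p come from different chromosomes, and their ratio within a library again needs no scaling. There were 2.70, 2.77 and 2.23 reads of miR-451a for each read of miR-486-5p in control 1, 2 and 3. In HTG 1, 2 and 3 there were 3.32, 3.11 and 3.29. Every HTG library thus lay above every control, with means of 3.24 ± 0.109 and 2.57 ± 0.298 (SD, n = 3 each), a difference of 0.34 on the log2 scale that ranged from 0.24 to 0.40 when 1 library was left out. This ratio was singled out among several after its values were seen and was given no test. As a background, the ratio of miR-451a to each of 480 other miRNAs was higher in HTG without overlap for 2.29% of them, and the ratio of each to miR-486-5p for 2.50%. As shares of the summed reads, control 2 reached 73.5% (95% Wilson interval 72.1% to 74.8%) and HTG 2 was at 75.7% (74.8% to 76.5%). These libraries were the nearest of the 2 groups, and their intervals met at 74.8%.

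**Figure D2:**
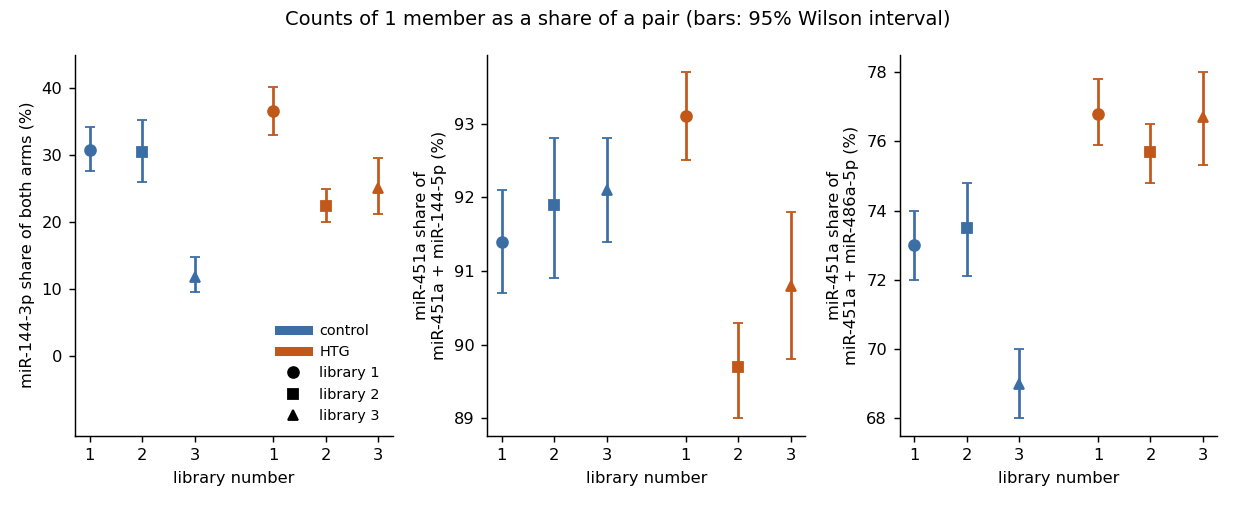
Counts of 1 erythroid miRNA as a percentage of a pair, by library, with 95% Wilson intervals as bars; vertical axes differ between panels and those of the middle and right panels do not start at 0. miR-144-3p in control 3 is at 11.8% against 22.3% to 36.5% in the other libraries, miR-451a against miR-144-5p shows no separation of the groups, and miR-451a against miR-486-5p is at 69.0% to 73.5% in control and 75.7% to 76.8% in HTG.

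**Figure D3:**
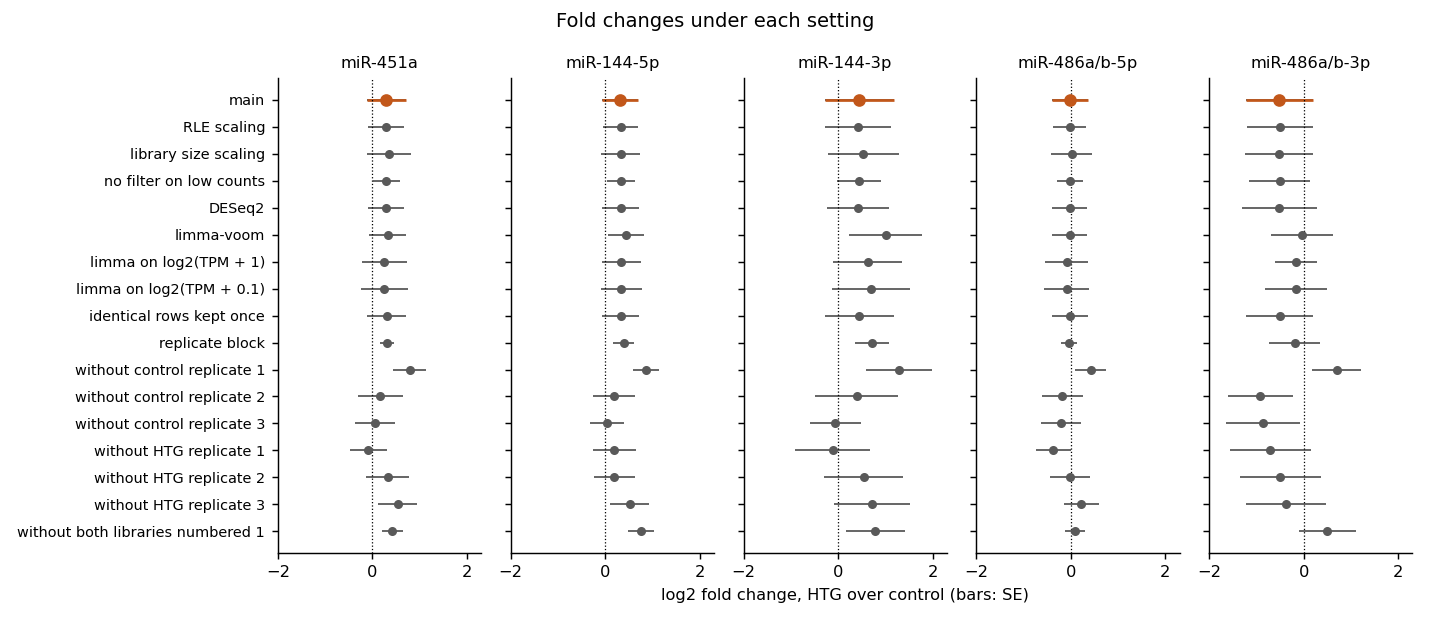
Log2 fold change of each erythroid miRNA (HTG over control) with its SE under each setting; the orange point at the top is the reported value and the dotted line is 0. Values for miR-144-5p stay to the right of 0, and those for miR-486-3p run from -0.92 without control 2 to 0.69 without control 1.

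Markers of other cells that could bring these miRNAs, or that move with blood, were read beside them. The leukocyte miRNAs (7 of 7 listed were tested) summed to 3627, 4776 and 2632 CPM in control 1, 2 and 3 and to 6575, 1287 and 1589 CPM in HTG 1, 2 and 3. HTG 1 was thus highest for the leukocyte sum and for the erythroid sum. Control 1 was the highest for miR-144-5p, miR-486-5p and miR-486-3p as single miRNAs. Control 2 lay above control 1 for the leukocyte sum and below it for each erythroid miRNA. The neutrophil and monocyte miRNA miR-223-3p made up 3510 CPM of the sum in control 2. Taken singly, 5 of the 7 leukocyte miRNAs were highest in both libraries numbered 1, as the erythroid miRNAs were, against 20.3% of all tested miRNAs. For the lymphocyte miRNA miR-150-5p, the libraries numbered 1 stood at 797 and 1726 CPM and the other 4 between 46.2 and 103 CPM. Their part in the erythroid values was not tested.

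Striated muscle is the other known source of miR-486. Its miRNAs summed to 604 CPM in control 1 and to between 191 and 249.5 CPM in the other 5 libraries. miR-1a-3p, the main miRNA of heart and skeletal muscle, was at 544 CPM in control 1 and at 167 to 229 CPM elsewhere. Control 1 was the highest library for the muscle sum and for miR-486-3p. In HTG 1 the muscle sum was 241 CPM and miR-486-5p was 229 CPM. In control 1 miR-486-5p was 235 CPM. Of the 6 muscle markers, 4 were tested. miR-499-5p of heart and slow muscle was at or below 0.431 CPM, near the limit of detection, and miR-208b-3p had no row under that name. The 4 tested markers all had fold changes below 0 (median -0.75), and none passed in edgeR, with 1, miR-133b-3p, at an unadjusted p under 0.05. The part of muscle in the miR-486 values was not tested. The endothelial sum, led by miR-126a-3p, differed little, at 8023 to 9655 CPM. Levels of miR-122-5p, a miRNA of hepatocytes, were 7.5, 6.0 and 1.78 CPM in the controls and 6.58, 1.11 and 1.18 CPM in the HTG libraries.

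Other miRNAs that red cells hold in quantity, or that rise as erythroid cells mature, did not, as a sum, follow miR-451a across libraries. The 18 of this list, which other tissues express as well, summed to 21423 to 23301 CPM per library. The libraries numbered 1 were not the highest in the sum. Abundant members weigh most in it, such as miR-182-5p, which was lowest in HTG 1, at 3286 CPM. Taken singly, 7 of the 18 were highest in both libraries numbered 1, against 20.3% of all tested miRNAs. Of the 18, 14 lay higher and 4 lower in HTG, 0 passed in edgeR (0 also at an unadjusted p under 0.05), and the median log2 fold change was 0.04. By comparison, 49.0% of all tested miRNAs lay above 0. The most abundant members were miR-182-5p (0.04 ± 0.27, SE), miR-92a-3p of the miR-17 cluster (-0.25 ± 0.17), miR-16-5p, which restrains the cell cycle (0.07 ± 0.25), and miR-22-3p (0.34 ± 0.19). miR-16-5p was highest in HTG 1, at 3419.6 CPM, while miR-92a-3p was highest in control 3, at 5431 CPM. The groups did not overlap for miR-22-3p and for miR-15a-5p (0.22 ± 0.14), both higher in HTG. These were 2 of the 18, and 4.30% of all tested miRNAs were higher without overlap.

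Regulators that fall or act early in erythropoiesis were evenly divided, with 5 of 10 higher, 5 lower and a median log2 fold change of -0.02. None passed in edgeR, over 488 miRNAs or at an unadjusted p under 0.05. miR-222-3p, which with miR-221-3p represses the receptor Kit of early erythroid cells, had a log2 fold change of -0.35 ± 0.16 (SE), and its groups did not overlap. It was 1 of 10 in this list, and 3.69% of all tested miRNAs were lower without overlap. The most abundant were miR-126a-3p (0.03 ± 0.14), miR-23a-3p (-0.21 ± 0.16), miR-24-3p, which represses the activin receptor Acvr1b in human erythroid cells (0.06 ± 0.14), and miR-27a-3p (0.01 ± 0.16). The ratio of miR-451a to miR-23a-3p, which in plasma serves as a gauge of red cell lysis, was 0.117, 0.0539 and 0.0350 in control 1, 2 and 3 and 0.133, 0.0811 and 0.0580 in HTG 1, 2 and 3. Again the libraries numbered 1 were highest.

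**Figure D4:**
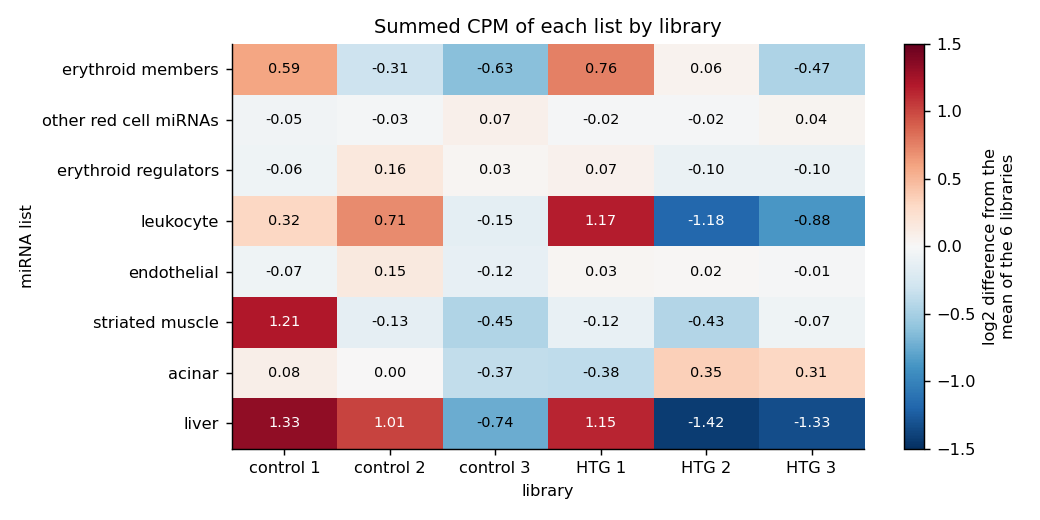
Summed CPM of the 5 erythroid measurements and of 7 miRNA lists in each library, as log2 difference from the mean of the 6 libraries (printed in each cell; red higher, blue lower). The erythroid row is highest in control 1 (0.59) and HTG 1 (0.76), the muscle row in control 1 alone (1.21), and the row of other red cell miRNAs stays between -0.05 and 0.07.

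Across the 6 libraries the erythroid miRNAs varied together. Pearson's correlation of log2(CPM + 0.25) with miR-451a was 0.93 for miR-144-5p, 0.93 for miR-486-5p, 0.90 for miR-144-3p and 0.73 for the rare miR-486-3p, a description of 6 libraries that share the offset of those numbered 1. Of all other tested miRNAs, the 5 whose pattern was most like that of miR-451a were miR-341-3p (0.98), miR-434-5p (0.96), miR-434-3p (0.96), miR-666-3p (0.94) and miR-3963 (0.94). For miR-486-5p they were miR-434-3p (0.97), miR-25-3p (0.96), miR-467e-5p (0.96), miR-195a-3p (0.95) and miR-466d-3p (0.94). Each of these miRNAs was also highest in both libraries numbered 1. miR-341-3p, for example, lay at 19.1, 8.76 and 7.31 CPM in the controls and 18.2, 12.9 and 8.60 CPM in the HTG libraries. miR-25-3p was also on the list of other red cell miRNAs described above.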

How the data were processed

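Per the labels, RNA was taken with Trizol and libraries came from a NEXTflex kit for small RNA (v3); Bowtie 1.1.1 and GRCm38 appear in the submitters' processing notes. Trimming, miRNA annotation and the handling of reads with several matches were not stated in any source used here. The deposited table gave whole-number counts per mature miRNA and, per the file headers, a TPM value that the authors made from them. Counts were tested with edgeR 4.0.16 under R 4.3.3, after the same code was tested on simulated data. Rows were kept by filterByExpr, with a CPM cutoff equal to 10 counts at the median library size. At least as many libraries as the smaller group holds had to meet the cutoff, and a row needed 15 counts in all. Scaling was by TMM, and the test was a two-sided quasi-likelihood test. Benjamini-Hochberg adjustment was over 488 miRNAs, with a threshold of 0.05. SEs and 95% intervals come from this fit. Alternatives were DESeq2 1.42.0, limma 3.58.1 (voom, or log2(TPM + 1) and log2(TPM + 0.1)), other scalings and filters, and fits without libraries. Hairpins were folded with RNAfold 2.7.2. Deviations from group means had r = 0.466, 0.187 and 0.253 between libraries of the same number, for numbers 1, 2 and 3. Unlike numbers 2 and 3 gave similar values, 0.226 for control 3 with HTG 2 and 0.215 for control 2 with HTG 3. A library numbered 1 against an unlike number gave -0.365 to -0.273. Deviations cancel within each group, so these values are not independent. A positive value for number 1 makes those against unlike numbers negative on balance. Number 1 had the highest value, and the values do not show whether the other numbers mark pairs. A fit with the number as a block was run as an alternative. Members and lists were chosen with earlier results of these data known. Named miRNAs are all members, up to 4 of each list by mean CPM, the 5 most like miR-451a and the 5 most like miR-486-5p by correlation, and those sharing a seed; miR-15a-5p, miR-222-3p with its partner miR-221-3p, miR-101a-3p with miR-101c, and the muscle markers miR-499-5p and miR-208b-3p were named outside this rule, with the values known.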

Additional observations from a re-analysis of the deposited data

How the results depend on the processing

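Over all 488 miRNAs, the count of adjusted calls was 0 in the reported fit and 0 with other scalings, DESeq2, limma-voom, limma on TPM, identical rows kept once and the replicate block. It was 1 with no filter on low counts and 4 without both libraries numbered 1, and ranged from 0 to 2 over the fits that left out 1 library (2 without control 1); none of these calls was an erythroid miRNA. Of 112 fits of the 7 rows under alternatives, 0 passed the adjusted threshold and 15 had the opposite sign. The identical miR-486a and miR-486b rows were each counted in these numbers. For miR-486-5p (both rows) the log2 fold change turned to 0.013 with library size scaling and to 0.082 without both libraries numbered 1, and leaving out 1 library gave -0.37 to 0.42. For miR-486-3p (both rows) it was 0.50 without both libraries numbered 1 and -0.92 to 0.69 with 1 library left out. The ranges with 1 library left out were -0.083 to 0.79 for miR-451a, -0.11 to 1.30 for miR-144-3p and 0.05 to 0.87 for miR-144-5p. The cause was not tested.

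With the replicate block, log2 fold changes were 0.30 ± 0.15 for miR-451a (adjusted p = 0.989 in edgeR, unadjusted 0.0752), 0.71 ± 0.35 for miR-144-3p, 0.39 ± 0.22 for miR-144-5p, -0.04 ± 0.18 for miR-486-5p and -0.19 ± 0.54 for miR-486-3p (SE). The block changed no call. For miR-144-3p the value was 1.0 ± 0.77 with limma-voom. The ratios and the summed share, which had no test, moved by less than the spread between replicates under each alternative run, but several differences turned sign when 1 library was left out. The difference in summed share (HTG minus control, 0.013 percentage points) was -0.013 without HTG 1. On the log2 scale, miR-144-3p over miR-144-5p went from 0.36 to -0.21 and miR-451a over miR-144-3p from -0.45 to 0.15 without control 3, and miR-486-5p over miR-486-3p went from 0.07 to -0.40 without control 1 and to -0.04 without HTG 1. Depth limits miR-486-3p, with 6 to 38 counts per library.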
